A study of Homo sapiens with 12 samples.

Results

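Replication-dependent histone genes supply the bulk of the protein on which newly copied DNA is wound. The 70 genes described here are all protein-coding genes whose GENCODE 29 symbol begins with HIST1H, HIST2H, HIST3H or HIST4H and that have a row in both deposited expression tables, out of 59424 genes in those tables. GENCODE 29 holds 71 such genes, and HIST2H3A was not used here because it has no row. By family they were 6 genes for H1, the linker histone that binds DNA between nucleosomes, and 17 for H2A, 18 for H2B, 14 for H3 and 15 for H4, the core histones. By location, 55 lie in the HIST1 group on chromosome 6, 11 in the HIST2 group and 3 in the HIST3 group on chromosome 1, and 1 (HIST4H4) on chromosome 12.

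The study asked which genes respond to the level of GALNT7, a Golgi enzyme that adds GalNAc to proteins during O-linked glycosylation. RNA was sequenced from 4 groups of 3 biological replicates of established human prostate cancer cell lines, with stable lentiviral integration in every group, controls included. CWR22Rv1 cells carried a control hairpin (shControl) or a hairpin against GALNT7 (GALNT7 KD). DU145 cells carried the Lenti-ORF control (OE control) or a GALNT7 expression construct (GALNT7 OE). Whether each line was a clone or a pool is not given in the sources used here. The replicates were named biological, with no further account of how they were separated, so the p-values measure the spread between these samples.

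The mRNAs of these genes are unusual because most end in a short stem-loop in place of a poly(A) tail. The stem-loop-binding protein SLBP and the U7 small nuclear ribonucleoprotein direct the cut that makes this end, and the mRNAs are made and kept mainly while DNA is copied in S phase. Many of the genes can also give a longer or spliced transcript with a poly(A) tail, a form known from cells that leave the cell cycle. The libraries were made with a kit that captures RNA through its poly(A) tail, so the values below report tailed histone transcripts and whatever untailed RNA was carried over, not the whole pool of histone mRNA. Fewer cells with such a transcript and fewer transcripts per cell cannot be told apart in bulk samples.

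The stem-loop is the shared feature of the family, and its sequence was read from the GENCODE 29 transcripts to see which genes have an annotated transcript that contains it. The 16-base histone stem-loop motif was taken with its conserved arm letters and 1 loop letter (T) fixed and the others free. This motif was searched after the coding region on the transcript strand. It was found in 31 of the 70 genes and took 6 forms. The most frequent was carried by 16 genes, the next forms by 5, 5 and 3 genes, and the others by 1 gene each. The forms are printed here as DNA with 1 gene for each, the arms of the stem in capitals and the loop in lower case. On GRCh38 they lie at chr1:149886188-149886203 (HIST2H2BE, minus strand), chr6:26285131-26285146 (HIST1H4H, minus strand), chr6:26123472-26123487 (HIST1H2BC, minus strand), chr1:149833032-149833047 (HIST2H4A, plus strand), chr6:26225596-26225611 (HIST1H3E, plus strand) and chr6:27133515-27133530 (HIST1H2AG, plus strand), all in the 3′ untranslated region.
HIST2H2BE: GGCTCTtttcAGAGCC
HIST1H4H: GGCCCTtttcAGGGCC
HIST1H2BC: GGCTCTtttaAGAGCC
HIST2H4A: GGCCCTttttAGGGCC
HIST1H3E: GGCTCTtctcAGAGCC
HIST1H2AG: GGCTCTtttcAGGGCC

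Every H4 gene with a match had one of the 2 forms with GGCCCT in the first arm, while the forms with GGCTCT were found in H2A, H2B and H3 genes. Annotation limits what could be counted. No 3′ untranslated region was annotated for 35 of the 70 genes, among them HIST1H1C and HIST1H2BK, so no stem-loop could be found there and reads beyond the coding region had no annotated place. For 25 genes an annotated transcript ran at least 100 bases past the stem-loop or was spliced, a form that could carry a tail. In 5 pairs of genes at least 80% of the 31-base words of the shorter gene were also in its partner (HIST2H2AA3 and HIST2H2AA4, HIST2H4A and HIST2H4B, HIST1H4J and HIST1H4K, HIST1H2AI and HIST1H2AJ, HIST1H3J and HIST1H2AM), and reads of one gene of such a pair may be counted for the other.

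In the promoters of these genes 4 short motifs were searched, for the 60 genes with a RefSeq promoter. Both strands of the 300 bases around the start (250 before and 50 after it) were searched. CCAAT was present in 83.3% of the 60, against 34.6% of all 35116 promoters, and TATAAA in 66.7% against 11.5%. The octamer ATTTGCAT, the site of the POU factors, was present in 68.8% of H2A and 69.2% of H2B promoters, in 0 of 6 H1 and 0 of 13 H4 promoters, and in 1.77% of all promoters. The letters TTTNNCGC, an E2F-type site, were present in 33.3% of the 60 against 6.89%. CCAAT was in every H1, H2A, H2B and H3 promoter but in 3 of 13 H4 promoters. Matches may overlap, since TATAAA and its reverse complement share letters. The windows are not all separate either. Some head-to-head H2A and H2B genes, such as HIST1H2AG and HIST1H2BJ, share most of a window, so the same octamer can count in both families. HIST1H2AD and HIST1H3D have the same window.

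The promoters of 4 genes are shown because the values of their transcripts in DU145 cells, given with the H2B and H4 results, were unlike. HIST1H2BJ was not called and its groups overlapped, HIST1H2BK fell the least of the called genes, HIST2H2BE fell further, and HIST2H4A is an H4 gene with none of the 4 motifs. All are 5′ to 3′ on the gene's strand from RefSeq on GRCh38.p14, with the 4 motifs, on either strand, in capitals. They lie at chr6:27132746-27133045 (HIST1H2BJ, minus strand), chr6:27146809-27147108 (HIST1H2BK, minus strand), chr1:149886633-149886932 (HIST2H2BE, minus strand) and chr1:149832407-149832706 (HIST2H4A, plus strand).
HIST1H2BJ: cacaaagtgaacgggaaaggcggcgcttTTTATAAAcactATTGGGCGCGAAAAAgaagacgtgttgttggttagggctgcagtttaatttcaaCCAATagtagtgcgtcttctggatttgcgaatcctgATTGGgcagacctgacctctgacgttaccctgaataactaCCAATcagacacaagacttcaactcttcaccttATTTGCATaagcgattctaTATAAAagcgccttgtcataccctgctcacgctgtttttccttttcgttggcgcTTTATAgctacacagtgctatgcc
HIST1H2BK: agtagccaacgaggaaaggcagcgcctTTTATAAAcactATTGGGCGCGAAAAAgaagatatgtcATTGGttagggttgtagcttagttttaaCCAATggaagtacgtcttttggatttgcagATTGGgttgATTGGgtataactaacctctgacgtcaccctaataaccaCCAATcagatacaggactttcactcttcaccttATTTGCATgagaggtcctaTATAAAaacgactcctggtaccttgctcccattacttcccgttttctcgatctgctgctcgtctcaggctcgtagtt
HIST2H2BE: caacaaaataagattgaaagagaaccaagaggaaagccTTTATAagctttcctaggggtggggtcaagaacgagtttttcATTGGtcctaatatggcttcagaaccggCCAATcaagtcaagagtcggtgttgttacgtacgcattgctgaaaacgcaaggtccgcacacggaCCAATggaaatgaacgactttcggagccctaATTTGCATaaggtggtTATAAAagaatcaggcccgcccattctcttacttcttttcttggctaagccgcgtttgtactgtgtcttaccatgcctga
HIST2H4A: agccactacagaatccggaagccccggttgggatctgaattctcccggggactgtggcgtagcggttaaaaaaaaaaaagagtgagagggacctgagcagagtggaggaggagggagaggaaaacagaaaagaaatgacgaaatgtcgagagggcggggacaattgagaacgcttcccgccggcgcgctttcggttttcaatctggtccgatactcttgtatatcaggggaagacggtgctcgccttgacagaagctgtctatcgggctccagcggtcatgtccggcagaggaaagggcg

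The windows of HIST1H2BJ and HIST1H2BK were 75% identical in a global alignment, and HIST1H2BJ and HIST2H2BE were 55.7% identical. All of these H2B promoters held the CCAAT and TATA letters and the octamer.

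The labels were checked on GALNT7 and on prostate markers. The GALNT7 transcript itself averaged 461 ± 53.7 normalised counts (SD, n = 3) after knockdown against 999 ± 122 with the control hairpin. It averaged 2181 ± 176 with the expression construct against 964 ± 75.8 in OE control. KLK3, the gene for PSA, was at 339 to 856 in the CWR22Rv1 libraries and at 0 in every DU145 library. The leukocyte marker CD3E was at 0 in all 12 libraries and PTPRC was at most 2.10. Depth was 18364512 to 22264533 reads in CWR22Rv1 and 21628718 to 24356910 reads in DU145. A normalised count is the number of reads divided by the size factor of its library.

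In DU145 cells, histone transcripts were lower with GALNT7 overexpression across all 5 families. The summed count of the 70 genes was 22725, 22383 and 21940.3 in the OE control libraries and 8997, 8492 and 8503 in the GALNT7 OE libraries. The mean of 22350 ± 394 (SD, n = 3) thus stood against 8664 ± 288, or 38.8% of the control. The 3 GALNT7 OE libraries were close together and far below every control library. In this sum the 10 highest genes held 89.4% of the control total.

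The families stood at different percentages of their control. H4 was the lowest, with 4380 ± 36.8 in OE control and 1074 ± 121 in GALNT7 OE, 24.5% of the control. H2A followed at 34.1% (5688 ± 129 and 1938 ± 92.1), H3 at 37.0% (607 ± 22.7 and 225 ± 9.04) and H2B at 43.0% (6883 ± 133 and 2957 ± 108). H1, carried almost entirely by HIST1H1C, stood highest at 51.6% (4791 ± 133 and 2471 ± 61.2). The control and GALNT7 OE libraries did not overlap in any family. Among the remaining transcripts H4 made up a smaller share of the sum, 12.4% ± 0.974 in GALNT7 OE against 19.6% ± 0.201 in OE control, and H1 a larger one, 28.5% ± 1.43 against 21.4% ± 0.270. These sums are descriptions and carry no test.

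**Figure D1:**
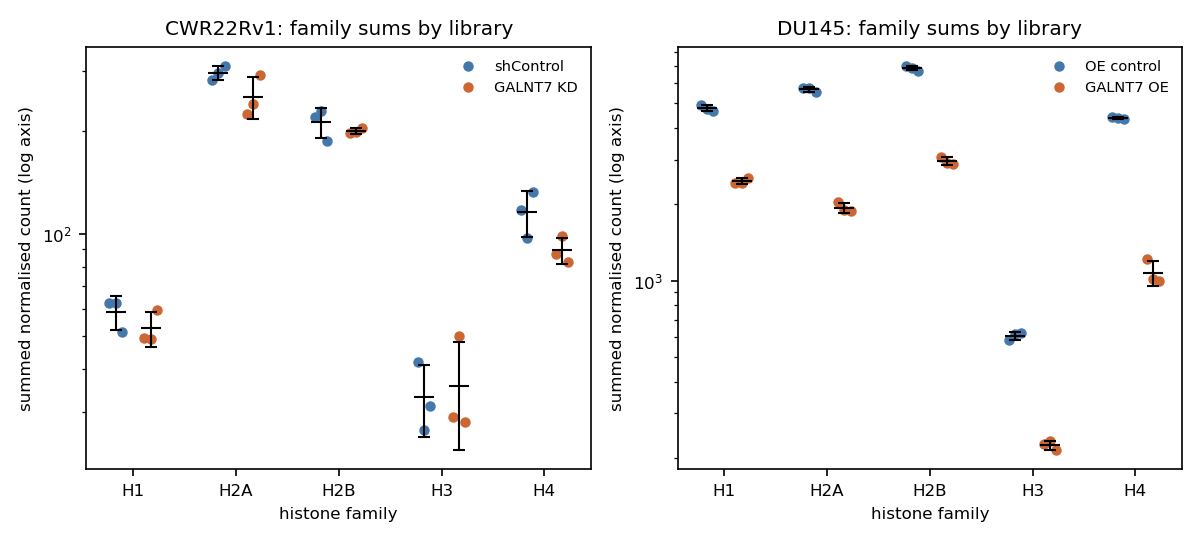
Summed normalised counts (log axis) of the H1, H2A, H2B, H3 and H4 genes in each library, with CWR22Rv1 on the left and DU145 on the right on axes of different range. Coloured points are libraries, the black bar is the mean and the error bar is 1 SD (n = 3). In DU145 every GALNT7 OE point lies below every OE control point in all 5 families, from 51.6% of the control mean in H1 to 24.5% in H4, while in CWR22Rv1 the groups overlap in each family.

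By position, the 11 HIST2 genes together were at 23.1% of the control (8677 ± 81.5 and 2001 ± 159), and the 55 HIST1 genes at 48.8% (13552 ± 366 and 6612 ± 134). The 3 HIST3 genes were at 50.6% and HIST4H4 at 29.6%. The 25 genes with an annotated transcript that ran past the stem-loop or was spliced were at 32.4% of the control. They held 60.02% ± 0.297 of the histone sum in OE control and 50.2% ± 0.360 in GALNT7 OE. The other 45 include HIST1H1C and HIST1H2BK, 2 high genes without an annotated 3′ untranslated region, which weigh on these sums. Per gene, the median log2 difference was -1.36 over the 21 tested of the 25 and -1.68 over the 17 tested of the 45. Of those 17, 6 had a GALNT7 OE mean under 5.

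Gene by gene, 38 of the 70 had a mean of at least 5 normalised counts and were tested with limma (R) on log2(normalised count + 1), with Benjamini-Hochberg adjustment over all 18705 genes tested. At an adjusted p under 0.05, 29 fell and 0 rose. Between GALNT7 OE and OE control, 43.5% of all genes tested were called, 20.5% lower and 22.9% higher. After rescaling to the 75th percentile 25.3% were lower and 18.1% higher, with 29 histone genes called again. The median log2 difference was -1.42 over the 38 histone genes and -0.01 over all genes tested. The 0 that rose was also the number with a higher value in every GALNT7 OE library than in every control library (28.2% of all genes), whereas 30 of the 38 were lower in that way (27.1% of all genes). Of the 38, 6 had a GALNT7 OE mean under 5 and passed the filter through the control libraries alone. The other 32 genes were too low to test, 20 of them with at least 1 read. The call counts were 29 with edgeR and 26 with DESeq2 on the same reads.

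By family the calls were 2 of 2 tested H1 genes, 8 of 10 H2A, 8 of 13 H2B, 3 of 5 H3 and 8 of 8 H4. Of the called genes, HIST1H2AK, HIST2H2AA4, HIST1H4B and HIST1H4J had a GALNT7 OE mean under 5. Among the 32 genes with a mean of at least 5 in both groups 25 were called lower, 2 of 2 for H1, 6 of 7 for H2A, 8 of 12 for H2B, 3 of 5 for H3 and 6 of 6 for H4. The median log2 difference was -1.66 for H1, -1.22 for H2A, -0.92 for H2B, -1.49 for H3 and -1.91 for H4. These medians are over all 38 tested genes. They include 3 H2A, 1 H2B and 2 H4 genes that passed the filter through the control libraries alone. For such genes only a lower GALNT7 OE mean was possible. Of the 19 genes with a mean of at least 50, 18 were called lower, all but HIST1H2BN.

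**Figure D2:**
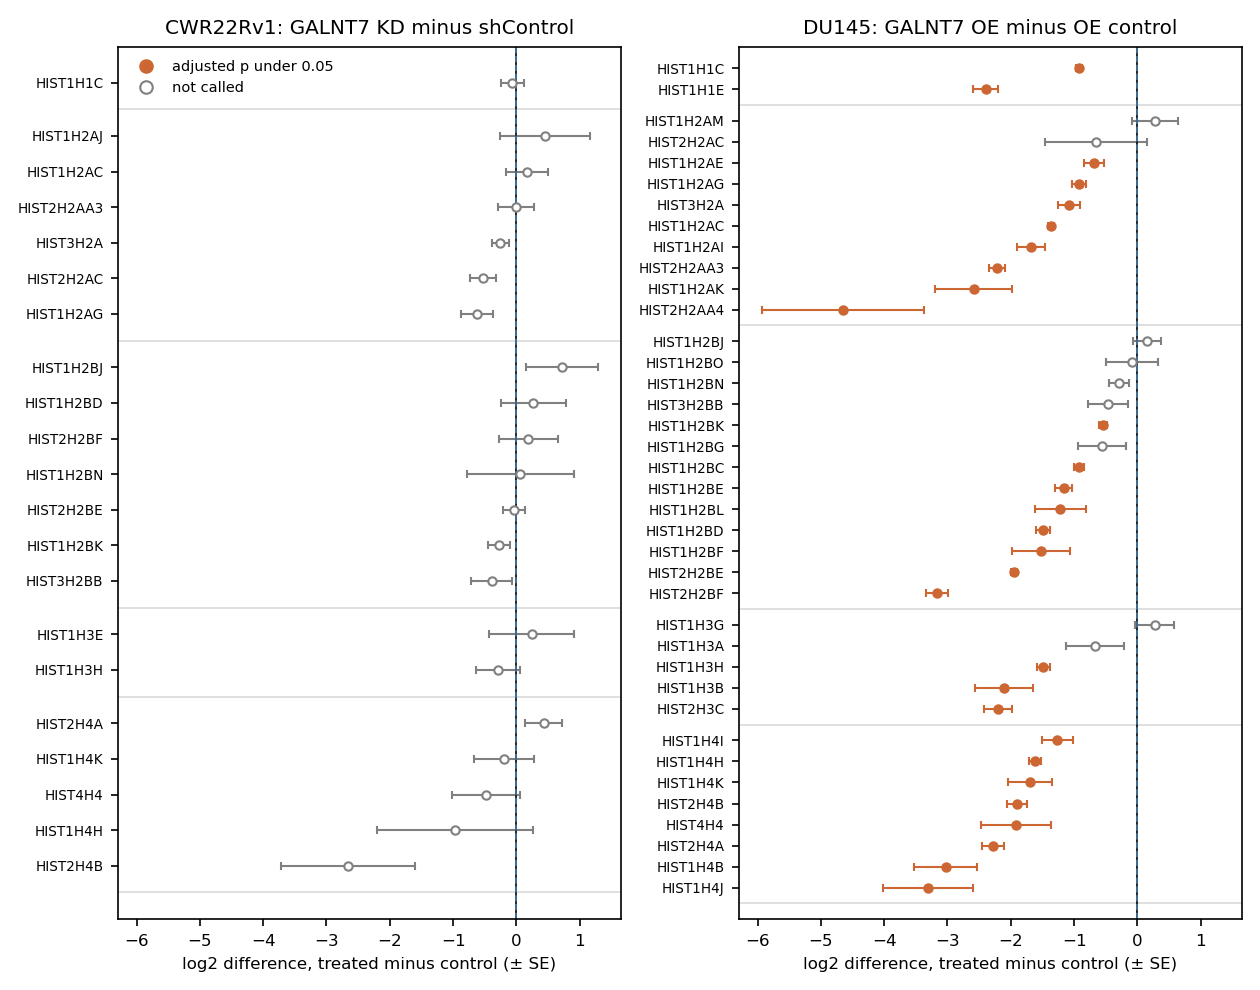
Log2 difference (treated minus control, fitted on log2(normalised count + 1)) of every tested histone gene, grouped from top to bottom as H1, H2A, H2B, H3 and H4, for CWR22Rv1 on the left and DU145 on the right. Error bars are 1 SE, filled points passed an adjusted p under 0.05 in limma, and the dashed line is the median of all genes tested. In DU145 29 of 38 points are filled and all of those lie below 0, and in CWR22Rv1 none of 21 is filled.

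Among the H1 genes, HIST1H1C (ENSG00000187837, chr6:26055787-26056428, 1 exon), a linker histone, had the highest level of all the genes per length, 7194 normalised counts per kb of exon in OE control. Length is the annotated exon sequence, 642 bases here and 381 for HIST1H2BK, both without a 3′ untranslated region. HIST2H2BE has 2194 bases with one, so ranks per length depend on the annotation. Its counts were 4749.5, 4593 and 4513 in OE control and 2400.4, 2410.0 and 2502 in GALNT7 OE. The groups did not overlap, and the log2 difference was -0.92 ± 0.04 (SE, limma adjusted p = 1.31e-05). HIST1H1E, another linker histone, fell further, from 159 ± 9.48 to 29.9 ± 6.36 (log2 difference -2.39 ± 0.19, adjusted p = 0.000126).

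Among the H2A genes, HIST1H2AC (chr6:26124145-26139116), with a spliced transcript and one that runs 1128 bases past the stem-loop, was at 3344, 3274 and 3174 in OE control and 1285, 1237 and 1285 in GALNT7 OE. All control libraries lay far above all GALNT7 OE libraries, with a log2 difference of -1.36 ± 0.05 (limma adjusted p = 4.85e-06). HIST2H2AA3 was at 1709, 1720.1 and 1789 against 446, 366 and 317, a log2 difference of -2.22 ± 0.12 (adjusted p = 2.57e-05). Its copy HIST2H2AA4 has the same sequence over 97.2% of its words, and its own counts jumped between libraries of 1 group, 129.8, 119 and 11.1 in OE control. Summed, the copies were at 1826 ± 22.0 and 379.9 ± 71.2, and the sum fell by 2.28 ± 0.13 on the log2 scale (adjusted p = 2.77e-05). HIST1H2AG, HIST1H2AI, HIST3H2A and HIST1H2AE fell by 0.92, 1.68, 1.08 and 0.68. With quantile normalisation HIST1H2AE was not called (log2 difference -0.39, limma adjusted p = 0.0930). HIST1H2AK fell to a GALNT7 OE mean of 1.31, at which its log2 difference depends on the pseudocount. The limma call of HIST2H2AA4 alone (adjusted p = 0.0243) was lost without OE control replicate 1 or 2 or without GALNT7 OE replicate 2 or 3, at adjusted p from 0.0740 to 0.0792. It was also lost with DESeq2 (adjusted p 0.0674) and in limma without the mean-variance trend (0.0508).

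Among the H2B genes, HIST2H2BE (ENSG00000184678, chr1:149884459-149886652), whose annotated transcript runs 1729 bases past the stem-loop, was at 2976, 3009 and 2903 in OE control and 765, 758 and 785 in GALNT7 OE. The replicates of each group were within a few percent of each other, and the log2 difference was -1.94 ± 0.05 (limma adjusted p = 2.13e-06). HIST2H2BF fell the most of the well-expressed H2B genes, from 282, 244 and 307 to 28.1, 26.8 and 35.7 (log2 difference -3.17 ± 0.17, adjusted p = 2.17e-05). HIST1H2BD, a gene with the TTTA loop form, fell by 1.497 on the log2 scale, HIST1H2BE by 1.16 and HIST1H2BC by 0.92. The limma calls of 2 low genes, HIST1H2BF (log2 difference -1.52, adjusted p = 0.0339) and HIST1H2BL (-1.22, adjusted p = 0.0459), were lost in 5 of the 6 fits that left out 1 library. HIST1H2BF stayed called only without GALNT7 OE replicate 3 (otherwise up to 0.102) and HIST1H2BL only without OE control replicate 1 (otherwise up to 0.148). Both calls were also lost with DESeq2 (adjusted p 0.0579 and 0.126). In limma they were lost with quantile normalisation (0.0742 and 0.128), the replicate block (0.0556 and 0.0981) and no filter (0.0532 and 0.0802).

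HIST1H2BK was the second highest gene per length, at 5018 normalised counts per kb in OE control, and fell the least of the called genes. It was at 1955, 1907 and 1874 against 1400.1, 1305 and 1231, with no overlap and a log2 difference of -0.54 ± 0.06 (limma adjusted p = 0.000606). HIST1H2BJ was at 43.0, 49.1 and 32.2 against 45.1, 51.7 and 40.9, so the groups overlapped, and its log2 difference was 0.16 ± 0.22 (adjusted p = 0.596). HIST1H2BN was at 159 ± 25.8 and 129 ± 13.1 with overlapping groups (log2 difference -0.30 ± 0.16, adjusted p = 0.173). In HIST1H2BK 13.7% of the 31-base words were its own, 82.9% were also in genes outside the 70 and 49.6% in other histone genes, so its count may include reads of either.

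For H3, HIST1H3H was at 424, 435 and 466 in OE control and 164, 164 and 144 in GALNT7 OE, with a log2 difference of -1.49 ± 0.10 (limma adjusted p = 5.71e-05). HIST2H3C, which shares all of its sequence with other genes, and HIST1H3B fell by 2.20 and 2.11. H3 had the lowest summed count of the 5 families in OE control.

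For H4, HIST2H4A was at 2379, 2533 and 2000.0 in OE control and 579, 485 and 373 in GALNT7 OE, and its copy HIST2H4B at 1101, 1011 and 1479 against 331, 277 and 345. The control libraries of HIST2H4A were high where those of HIST2H4B were low. Their sum was steadier, 3501 ± 37.8 against 797 ± 100.3, and its log2 difference was -2.14 ± 0.09 (limma adjusted p = 8.53e-06). HIST1H4H was at 756, 656 and 700.2 against 245, 218 and 221 (log2 difference -1.62 ± 0.09, adjusted p = 2.90e-05). HIST4H4 was at 40.1, 52.2 and 38.3 against 16.04, 3.70 and 18.9, without overlap (adjusted p = 0.0290). Its call was lost without any 1 of the OE control libraries (adjusted p up to 0.0857) and in limma without the mean-variance trend (0.0506). HIST1H4J and HIST1H4K, summed because they share sequence, fell by 2.03 ± 0.25 (adjusted p = 0.000707). HIST1H4B was at 11.9 ± 1.27 in OE control and had 0 to 1.05 normalised counts in the GALNT7 OE libraries, too few for a size of change.

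**Figure D3:**
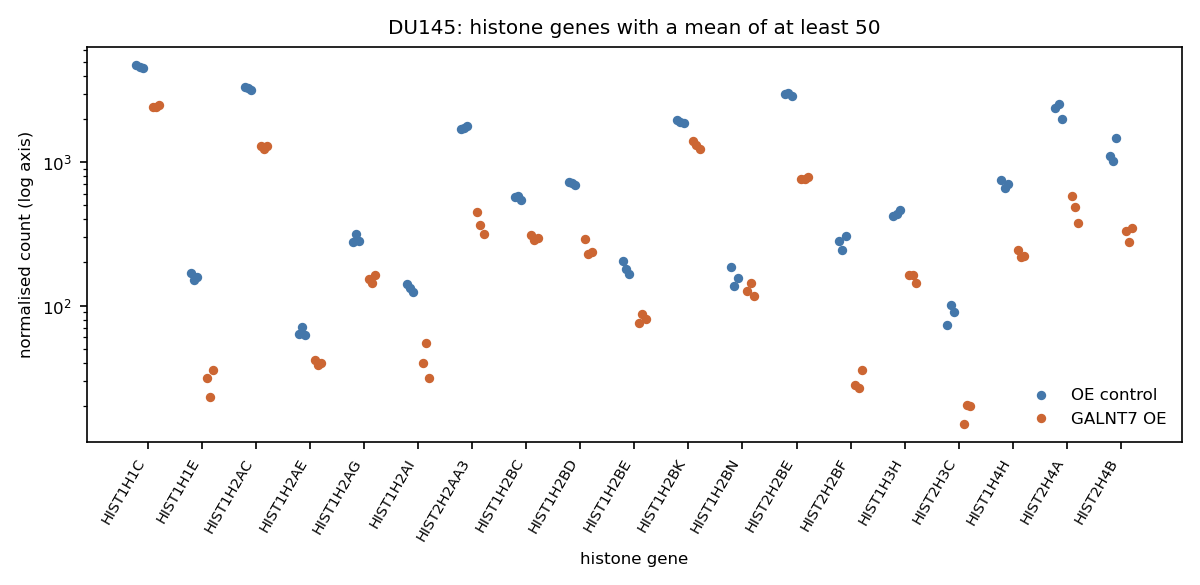
Normalised counts (log axis) in each DU145 library of the 19 histone genes with a mean of at least 50, ordered by family. Each point is a library, with 3 OE control and 3 GALNT7 OE libraries for each gene. The 2 groups are apart for every gene shown except HIST1H2BN, and the distance is largest for HIST2H2BF, from 278 to 30.2.

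Genes that share a start region were not always called together. The annotation placed 12 pairs of histone genes head to head with less than 1000 bases between their starts, and both genes were tested in 7 of these pairs in DU145. Both were called lower in 2 pairs (HIST1H2BC with HIST1H2AC, HIST1H2BL with HIST1H2AI), 1 gene in 4 pairs, and neither in 1. For comparison, 29 of the 38 tested histone genes and 20.5% of all genes were called lower. The call of HIST1H2BL was lost in 5 of the 6 fits without 1 library. In those 4 pairs the uncalled partners were low, at means of 9.42 to 41.4 in OE control. Their log2 differences were -0.56 (HIST1H2BG), -0.65 (HIST2H2AC), -0.46 (HIST3H2BB) and 0.16 (HIST1H2BJ). Next to HIST1H2BJ, 292 bases away, HIST1H2AG fell from 291 ± 18.9 to 154 ± 10.7 (log2 difference -0.92 ± 0.11, limma adjusted p = 0.000602). HIST2H2AC, 323 bases from HIST2H2BE, was at 9.42 ± 8.76 and 4.78 ± 3.89, with overlapping groups.

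In CWR22Rv1 cells with GALNT7 knockdown no histone gene was called, and histone counts were low in both groups. The 70 genes summed to 724, 713 and 713 normalised counts in shControl and 588, 636 and 668 in GALNT7 KD. The mean was 717 ± 6.57 against 630.4 ± 40.1 (SD, n = 3), or 88.0% of the control, and every GALNT7 KD library was below every shControl library. Scaled to library depth as RPM the sum was 36.2 to 36.7 in shControl and 988 to 1022 in the DU145 controls. These tables were scaled separately and the cell lines differ, so the levels are set side by side without a test.

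By family, H4 was at 77.1% of shControl, H2A at 85.2%, H1 at 89.5%, H2B at 94.2% and H3 at 107%. The libraries overlapped in each family. H3 was at 33.2 ± 7.95 and 35.7 ± 12.5, and its percentage ran from 85.7 to 124 when single libraries were left out.

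Of the 70 genes, 21 were tested, and 0 were called in either direction by limma, 0 by edgeR and 0 by DESeq2, where limma called 9.06% of all 17906 genes, 5.28% higher and 3.79% lower (4.66% higher and 4.24% lower after rescaling to the 75th percentile). At an unadjusted p under 0.05 there were 3 (HIST1H2AG, HIST2H2AC and HIST2H4B), all lower, where 26.1% of all genes passed that level. The median log2 difference was -0.06, against -0.01 over all genes tested. Every GALNT7 KD library was below every shControl library for 5 of the 21 (15.6% of all genes) and above for 0 (16.9%). A further 34 genes had reads but a mean under 5. In 8 genes, HIST1H1A, HIST1H2AA, HIST1H2BA, HIST1H2BH, HIST1H3F, HIST1H4F, HIST1H4G and HIST3H3, 0 reads were counted in all 12 libraries, which allows up to 3 reads in a library from counting error alone.

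By level per length, the highest gene in CWR22Rv1 was not that of DU145, while HIST1H2BK was among the highest in both. HIST3H2A (chr1:228456979-228457873) had the highest level per length in shControl, 159 normalised counts per kb, followed by HIST2H2AC at 150.3 and HIST1H2BK at 128. For HIST2H2AC and HIST1H2BK no 3′ untranslated region is annotated, so these ranks too depend on the annotated length. HIST3H2A was at 137, 139 and 150.2 in shControl and 106, 128 and 123 in GALNT7 KD, without overlap, and its log2 difference was -0.25 ± 0.13 (limma adjusted p = 0.272). HIST2H2AC was at 60.7, 55.7 and 59.5 against 32.9, 40.5 and 49.1, also without overlap (log2 difference -0.53 ± 0.20, adjusted p = 0.157). HIST2H2BE was at 87.1 ± 10.2 and 85.3 ± 11.9 and HIST1H1C at 50.7 ± 6.62 and 48.2 ± 2.44, both overlapping, with log2 differences of -0.03 ± 0.17 and -0.06 ± 0.18.

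HIST2H4B was at 42.9, 30.1 and 43.9 in shControl and 0, 11.7 and 18.3 in GALNT7 KD, while its copy HIST2H4A was at 28.0, 31.8 and 33.9 against 52.2, 52.3 and 27.9. The library with 0 for HIST2H4B was among the highest for HIST2H4A. Their sum was 70.2 ± 7.99 against 54.1 ± 9.04, with overlapping groups and a log2 difference of -0.38 ± 0.19 (limma adjusted p = 0.270).

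Many other genes of histone supply rose in DU145. The lists are of genes known for a role in it, chosen with earlier results of these data known. Among 18 genes of histone pre-mRNA 3′ processing, 13 rose and 0 fell, with a median log2 difference of 0.39 (22.9% of all genes rose). SLBP was at 1849, 1874 and 1722 in OE control and 2607, 2767 and 2473 in GALNT7 OE, without overlap (log2 difference 0.53 ± 0.06, limma adjusted p = 0.000659). The largest called rises were those of SNRPF, a core spliceosomal protein also found in the U7 particle, by 0.95 ± 0.14, CPSF2, a cleavage factor subunit, by 0.80 ± 0.09, and SNRPG, another core protein, by 0.78 ± 0.07. CASP8AP2 (FLASH), which links the U7 particle to the cleavage factor, rose by 0.53 ± 0.07. LSM11, a protein specific to the U7 particle, was called at an adjusted p of 0.0430, and the call held only without GALNT7 OE replicate 1 (0.0706 to 0.123 in the other 5 fits that left out 1 library). Its call was also lost with DESeq2 (0.0577), rescaling to the 75th percentile (0.0916), the replicate block (0.0895) and no filter (0.0669). ZNF473, which binds the U7 particle, was at 343 ± 44.0 and 412 ± 31.1 (adjusted p = 0.118).

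Of 9 genes of histone gene transcription, 6 rose and 0 fell, with a median of 0.58, where 22.9% of all genes rose and 20.5% fell. CCNE2 (cyclin E2) rose by 1.31 ± 0.18 on the log2 scale, E2F1 by 1.11 ± 0.06 and CDK2 by 0.96 ± 0.05. NPAT, the activator that cyclin E and CDK2 phosphorylate at histone gene clusters, was at 908 ± 47.2 and 852 ± 74.6 with overlapping groups (log2 difference -0.09 ± 0.09, limma adjusted p = 0.414). Of 8 genes of histone mRNA decay, 3 rose (DCP2 by 0.95 ± 0.15, LSM1 by 0.35 ± 0.07 and ERI1, the exonuclease that binds the stem-loop, by 0.25 ± 0.05), 0 fell, and the median was 0.17, against the same 22.9% and 20.5%.

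Replacement and variant histones, whose mRNAs mostly carry a poly(A) tail, were called in both directions. Of 12 genes 11 were tested, 5 rose and 3 fell, with a median of 0.30, where 22.9% of all genes rose and 20.5% fell. CENPA, the centromeric H3, was at 257, 245 and 254 in OE control and 988, 982 and 1030.0 in GALNT7 OE (log2 difference 1.98 ± 0.07, limma adjusted p = 4.78e-06). H2AFZ, which codes for H2A.Z, rose by 1.25 ± 0.05. H1F0, the linker histone of non-dividing cells, was at 9934, 10072 and 9800.4 against 4619, 4510.5 and 4680.2, a fall of 1.11 ± 0.04 (adjusted p = 3.22e-06). H1FX and H3F3B, which codes for H3.3, fell by 0.57 ± 0.12 and 0.54 ± 0.04, while H3F3A, which codes for the same H3.3 protein, was at 6214 ± 39.3 and 6489 ± 289 (adjusted p = 0.292).

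Of 24 histone chaperones and assembly genes, 18 rose and 2 fell (CABIN1 and ATRX), with a median of 0.55, where 22.9% of all genes rose and 20.5% fell (18.1% and 25.3% after rescaling to the 75th percentile). HJURP, the chaperone of CENPA, rose by 1.83 ± 0.14, ANP32E, which removes H2A.Z, by 1.46 ± 0.06, and ASF1B, which hands on newly made H3 and H4, by 1.45 ± 0.09.

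**Figure D4:**
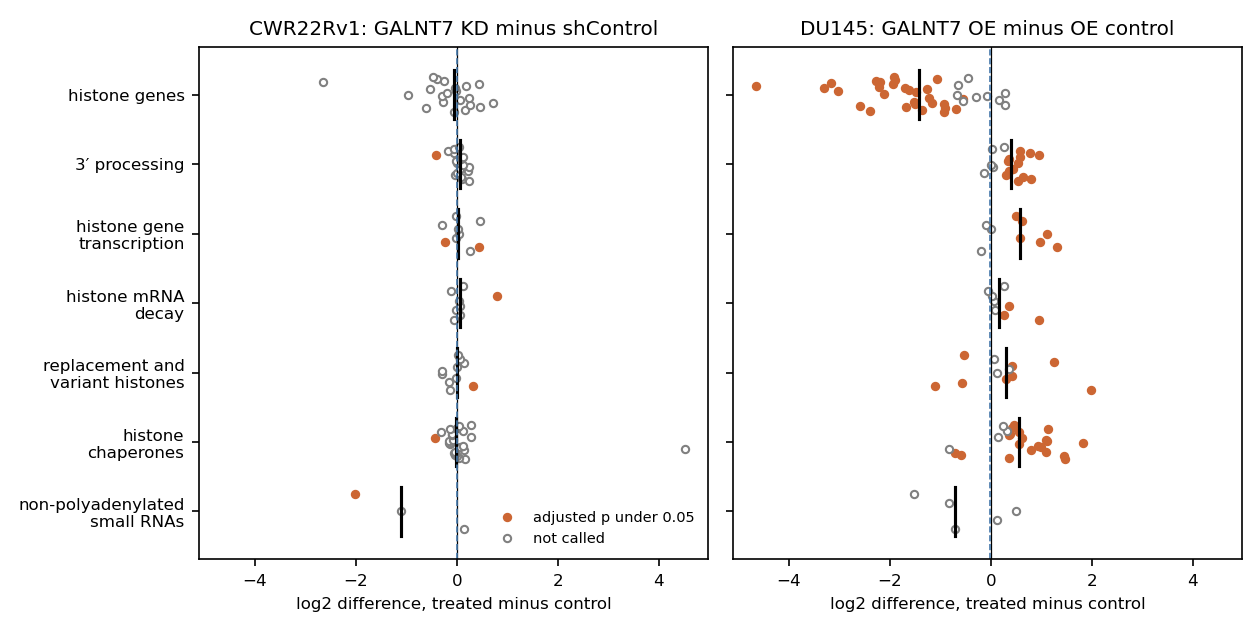
Log2 difference (treated minus control) of the tested histone genes and of the genes of 6 lists, for CWR22Rv1 on the left and DU145 on the right. Each point is a gene, filled where limma's adjusted p was under 0.05, the black bar is the median of the group and the dashed line the median of all genes tested. In DU145 the histone genes have a median of -1.42 while the 5 protein-coding lists have medians from 0.17 to 0.58, and in CWR22Rv1 the 6 protein-coding groups have medians between -0.06 and 0.06. The small RNAs without a poly(A) tail have a median of -0.72 over 5 tested in DU145 and -1.10 over 3 in CWR22Rv1.

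Untailed RNA carried over into the libraries was followed with 22 small RNAs that lack a poly(A) tail. In DU145 5 passed the filter and limma called 0 of them, where 43.5% of all genes tested were called. SNORD3A (U3) was at 21.0, 41.9 and 24.2 in OE control and 20.04, 4.62 and 7.34 in GALNT7 OE, RN7SK at 26.5 ± 7.58 and 15.4 ± 2.28, and SCARNA13 at 9.60 ± 1.45 and 4.92 ± 0.679. All GALNT7 OE libraries were below all OE control libraries for these 3, at unadjusted limma p of 0.0259, 0.0416 and 0.0491 (adjusted p 0.0573, 0.0833 and 0.0952). Of all genes tested, 27.1% were below in that way and 51.7% had an unadjusted limma p under 0.05. RN7SL1 and RN7SL2 overlapped between the groups, at 95.5 ± 14.1 and 106 ± 24.3, and 55.5 ± 11.01 and 82.0 ± 30.2. The list summed to 207 to 254 normalised counts in OE control and 213 to 254 in GALNT7 OE. The part of carried-over RNA in the histone differences was not tested.

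In CWR22Rv1 6 of the 69 tested genes of the protein-coding lists were called, or 8.70%, near the 9.06% of all genes. The called genes were SNRPF (fell by 0.42 ± 0.06), CDK2 (fell by 0.24 ± 0.05) and CCNE2 (rose by 0.45 ± 0.07), TUT7, which adds uridines to histone mRNA during decay (rose by 0.80 ± 0.14), H1F0 (rose by 0.32 ± 0.03) and NAP1L1, a nucleosome assembly protein (fell by 0.43 ± 0.04). The limma call of CDK2 (adjusted p = 0.0410) was lost whichever library was left out, with adjusted p from 0.0659 to 0.132, and that of TUT7 without shControl replicate 1 or 3 or GALNT7 KD replicate 1 or 2 (0.0577 to 0.0817). That of CCNE2 was lost without shControl replicate 3 or GALNT7 KD replicate 1 (0.0577 and 0.0641). SLBP was at 2930.1 ± 174 and 2949 ± 70.9, with a log2 difference of 0.01 ± 0.06. NPAT was at 1057 ± 85.2 and 858 ± 2.49, without overlap (-0.30 ± 0.08, adjusted p = 0.0635). LSM11 (adjusted p = 0.687), ZNF473 (0.884) and CASP8AP2 (0.0724) were not called, while DESeq2 called NPAT (0.0123) and CASP8AP2 (0.0177). Of the untailed RNAs 3 were tested, and RN7SL2, an RNA of the signal recognition particle, fell from 188 ± 75.5 to 43.3 ± 8.01 (adjusted p = 0.0153), a call lost without shControl replicate 2 or GALNT7 KD replicate 1 (0.0542 and 0.0617). The whole list reached 98.6 to 226 normalised counts after knockdown where the shControl libraries held 229 to 440, and its part in the lower histone sum was not tested.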

How the data were processed

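RNA was extracted with RNeasy columns and sequenced from poly(A)-selected TruSeq Stranded mRNA libraries. Per the labels, Salmon, DESeq2, R 3.5.3 and hg38 were used; Salmon's version and annotation release are not given in the sources used here. The deposited signal is a normalised count: the authors divided reads per gene by 1 size factor per library, separately for each cell line. Dividing out the factor returned 100% whole reads (tolerance 0.01), 18364512 to 24356910 per library. Depth limits the precision of low genes, and the limit for a count of 0 covers counting error only.

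From these values, genes with a mean of at least 5 over the 6 libraries of a table were tested with limma 3.58.1 (R 4.3.3) on log2(normalised count + 1), with a mean-variance trend, each cell line fitted alone, and Benjamini-Hochberg adjustment over all genes tested. A call is an adjusted p under 0.05. Fold changes on this scale understate changes of low genes. Alternatives were edgeR 4.0.16 and DESeq2 1.42.0 on the recovered reads, other pseudocounts (0.5 and 5), filters, scalings and thresholds, a replicate block, summed copies and leaving out each library.

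The histone genes and the 6 lists were chosen with earlier results of these data known. Named were histone genes with a mean of at least 50 in either table, up to 3 further called genes per family and comparison with the largest differences, the 3 largest called per list, and SLBP, NPAT, LSM11, ZNF473 and CASP8AP2. HIST1H2BJ, HIST1H4B, HIST1H2AK, HIST2H2AC, H3F3A and other genes outside this rule were chosen after their values were seen. Transcript structure and stem-loops came from GENCODE 29 (GRCh38), and promoters from RefSeq (GRCh38.p14). No fold changes of the authors were used.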

Additional observations from a re-analysis of the deposited data

How the results depend on the processing

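In DU145 the number of histone genes called lower by limma was 29 and ranged from 23 (adjusted p under 0.01, or a mean of at least 20) to 30 (no filter), with 29 by edgeR, 26 by DESeq2 and 24 to 27 when single libraries were left out. None was called higher in these fits. Counting only genes with a mean of at least 5 in both groups, chosen after seeing the data, gave 25. Of 850 values of the 48 named genes under the alternatives, 805 kept direction and call, 45 lost the call and 0 reversed. In CWR22Rv1 0 histone genes were called under every alternative run. There, of 458 values of 26 named genes, 409 kept direction and call, 23 lost the call, 2 gained one and 24 reversed. Those that reversed belonged to 8 genes, none of them called, with reported log2 differences from -0.03 (HIST2H2BE) to 0.27 (HIST1H2BD). HIST1H2BN was at -0.069 with edgeR and -0.068 with DESeq2. HIST2H2AA3 was at 0.058 after quantile normalisation, 0.0085 with edgeR and 0.012 with DESeq2. SLBP was at -0.011 after rescaling to the 75th percentile and -0.032 after quantile normalisation. With single libraries left out the log2 difference ran from -0.056 to 0.33 for HIST1H2AC, -0.12 to 0.61 for HIST1H2BD, -0.44 to 0.82 for HIST1H2BN, -0.20 to 0.19 for HIST2H2AA3, -0.13 to 0.086 for HIST2H2BE, -0.24 to 0.47 for HIST2H2BF, -0.037 to 0.047 for SLBP and -0.045 to 0.14 for ZNF473. The cause was not tested. After rescaling to the 75th percentile, chosen for the sums after seeing the data, the DU145 sum was 36.2% of the control (H1 48.1%, H2A 31.8%, H2B 40.1%, H3 34.6%, H4 22.9%). With single libraries left out it was 38.0% to 39.2% (H1 50.8% to 52.4%, H2A 33.1% to 34.6%, H2B 42.1% to 43.5%, H3 36.2% to 37.8%, H4 22.9% to 25.4%). With the replicate block 27 histone genes were called in DU145 and 0 in CWR22Rv1. Same-numbered libraries correlated at -0.01 to 0.07 in CWR22Rv1 and 0.02 to 0.04 in DU145, so the numbers were not taken as pairs; in DU145 each OE control library correlated best with the GALNT7 OE library of its own number, a hint from the data and not from the design. Low counts and poly(A) selection limit what can be said of genes under the filter.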
